A study of Mus musculus with 4 samples.

Results

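Type I interferon stimulated genes are the antiviral programme that cells switch on when interferon alpha or beta reaches them. A list of 37 such genes was followed in macrophages grown from the bone marrow of female BALB/c mice. Members were the listed genes with a probe set (the gene-level entry of the array) annotated to a single gene symbol. Where a gene had several probe sets, the entry with the highest mean signal over the arrays stood for it. In all, 34 of the 37 genes were measured this way, out of 19938 genes on the array. Isg15 and Ifi47 lay on probe sets shared with other symbols, and Ifi44 had no match, so these 3 genes were not analysed here.

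The study asked how the inflammatory state of macrophages depends on the kinase activity of RIPK1, a regulator of cell death and inflammation. Marrow cells were grown for 7 days in medium with 30% L929-conditioned medium (a source of M-CSF, the macrophage growth factor) and kept in 10% of it for the last 48 hours before treatment. Control cells had no addition, LPS cells received lipopolysaccharide (a ligand of TLR4) at 10 ng/ml, LPS/zVAD cells received the same LPS with the caspase inhibitor zVAD at 50 µM, and LPS/zVAD/Nec-1 cells received both with the RIPK1 kinase inhibitor necrostatin-1 at 30 µM. All 4 groups share strain, sex, tissue and culture, and no genetic change is labelled. Each group was 1 Affymetrix array, so differences are ratios between 2 single arrays, with no replicates and no p-values. The arrays with added inhibitors are called the zVAD array (LPS and zVAD) and the Nec-1 array (LPS, zVAD and Nec-1). The labels do not say how many mice the cells came from, and no age or treatment time is stated in the sources used here. No array of zVAD alone, of Nec-1 alone or of LPS with Nec-1 was analysed here, so the action of either inhibitor by itself cannot be told apart.

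LPS reaches the interferon programme by way of TLR4, whose adaptor TRIF (gene Ticam1) signals through the kinases TBK1 and IKK-epsilon to the factor IRF3, which switches on Ifnb1. Interferon beta then binds the receptor IFNAR1/IFNAR2 on the same or neighbouring cells. The receptor's kinases JAK1 and TYK2 activate STAT2, which together with IRF9 is part of the factor ISGF3. ISGF3 binds a short DNA element, the interferon stimulated response element (ISRE), near the start of many of these genes. Some members, such as Cxcl9 among the chemokines, are also well known targets of interferon gamma.

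The ISRE is the element through which interferon is known to reach such genes, and it was looked for in the RefSeq promoters (GRCm38.p6, 250 bases before to 50 after the annotated start). Of the 34 measured genes, 25 had an entry. The ISRE-type pattern (GAAA, any 2 bases, GAAA), read on both strands, occurred in 12 of these 25 (48%), against 3.68% of 9782 genes past the signal filter and 3.99% of 27025 genes in the table. Among 809 genes at least 2-fold higher with LPS than in control, which include these 25 members, 10.6% held it. A longer form, which ends in GAAACT, was present in 6 of the 25 and in 0.303% of all genes in the table. A gene with several promoter entries counted if any of them held the pattern. The NF-kB-type pattern (GGGA, any 2 bases, TTCC) was found in 3 of the 25 (12%, against 1.63% of all genes in the table). The GAS-type letters TTCNNNGAA were found in 8 (32%, against 9.55%). The motifs can overlap one another. A match describes letters and is not evidence of binding, and a promoter without a match says only that these letters are not in that window.

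Promoters of 5 members with differing responses are shown as examples. They do not represent the share of members with an ISRE-type match (12 of 25). They run 5′ to 3′ in the direction of the gene, with ISRE-type and NF-kB-type matches in capitals. Ifit1 (chr19:34640639-34640938, plus strand) has 2 ISRE-type matches, starting at -104 and -85 from the gene's first base, both read from the opposite strand. Rsad2 (chr12:26456403-26456702, minus strand) has 1, at -120. Cxcl10 (chr5:92348840-92349139, minus strand) has an ISRE-type match at -213 and an NF-kB-type match at -159. Bst2 (chr8:71537423-71537722, minus strand) has 2 overlapping ISRE-type matches at -130 and -124, and Cxcl9 (chr5:92328030-92328329, minus strand) has neither motif in this window.
Ifit1: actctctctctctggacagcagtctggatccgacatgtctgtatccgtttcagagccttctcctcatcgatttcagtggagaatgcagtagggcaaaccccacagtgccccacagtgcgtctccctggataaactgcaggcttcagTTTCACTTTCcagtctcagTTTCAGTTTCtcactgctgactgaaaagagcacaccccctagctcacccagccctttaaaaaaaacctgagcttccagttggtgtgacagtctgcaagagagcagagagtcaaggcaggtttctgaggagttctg
Rsad2: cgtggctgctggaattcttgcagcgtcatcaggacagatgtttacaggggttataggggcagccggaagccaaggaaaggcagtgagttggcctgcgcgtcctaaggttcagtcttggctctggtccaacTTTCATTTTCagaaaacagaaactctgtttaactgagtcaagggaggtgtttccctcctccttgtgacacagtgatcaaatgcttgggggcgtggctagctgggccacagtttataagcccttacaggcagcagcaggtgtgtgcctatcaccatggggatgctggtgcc
Cxcl10: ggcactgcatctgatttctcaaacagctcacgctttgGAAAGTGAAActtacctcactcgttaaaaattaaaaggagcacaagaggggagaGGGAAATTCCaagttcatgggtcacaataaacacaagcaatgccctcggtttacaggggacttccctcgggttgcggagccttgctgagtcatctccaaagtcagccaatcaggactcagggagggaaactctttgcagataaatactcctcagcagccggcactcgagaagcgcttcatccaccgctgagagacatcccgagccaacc
Bst2: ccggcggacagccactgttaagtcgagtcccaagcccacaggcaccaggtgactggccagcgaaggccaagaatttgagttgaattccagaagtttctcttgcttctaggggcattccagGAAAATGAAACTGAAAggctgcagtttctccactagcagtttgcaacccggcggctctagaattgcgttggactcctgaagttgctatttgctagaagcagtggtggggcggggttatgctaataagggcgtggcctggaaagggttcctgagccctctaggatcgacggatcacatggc
Cxcl9: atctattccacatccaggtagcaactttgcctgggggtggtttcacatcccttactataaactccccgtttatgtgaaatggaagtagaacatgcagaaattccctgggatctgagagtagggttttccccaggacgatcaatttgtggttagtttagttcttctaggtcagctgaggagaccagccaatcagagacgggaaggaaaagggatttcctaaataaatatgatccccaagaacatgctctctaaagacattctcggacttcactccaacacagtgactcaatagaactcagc

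The arrays were alike in overall level, with medians of all 35556 entries between log2 6.41 and 6.52 and a highest value of log2 14.63. A gene counted as past the signal filter if its highest signal on the 4 arrays reached the median of all values (log2 6.47). All 34 measured members passed. Shares of genes quoted as background refer to the 12203 genes past that filter. All 8 macrophage markers (among them Adgre1, Csf1r and Lyz2) lay between log2 10.19 and 14.05 on every array. B cell markers were under the filter level on every array, with 3 of 3 measured. T and NK cell markers had at most 1 of 5 at or above it, and conventional dendritic cell markers at most 1 of 4. Markers of plasmacytoid dendritic cells, a potent source of interferon, had 2 to 4 of 6 (highest signal log2 8.05). Of these, Klk1 was matched through an older symbol to Klk1b1. That entry need not be the same gene and was under the filter level on every array. Of 6 neutrophil markers, 5 were at or above it on each array, with a summed signal of log2 10.98, 11.27, 10.82 and 11.12 in untreated, LPS, zVAD and Nec-1 cells. The part of such cells in the members' signals was not tested. In bulk RNA, fewer cells of a type and less RNA per cell cannot be told apart.

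LPS against control addressed the response to LPS itself. Every one of the 34 members was higher with LPS, by at least 3-fold, and the median log2 ratio was 3.12 (all genes past the filter, -0.12). The background share was 8.24% of genes at least 2-fold higher and 7.2% at least 2-fold lower. At a stricter 8-fold, 17 of the 34 members were higher, against 1.35% of all genes. Of the 100 highest ratios on the array, 15 were members. Control signals of the members ran from log2 5.63 to 11.43 with a median of 9.13, and LPS signals from 10.88 to 14.03 with a median of 12.79. The size of the response therefore varied widely among the members, from 3.55-fold (Adar) to 136-fold (Cxcl10).

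**Figure D1:**
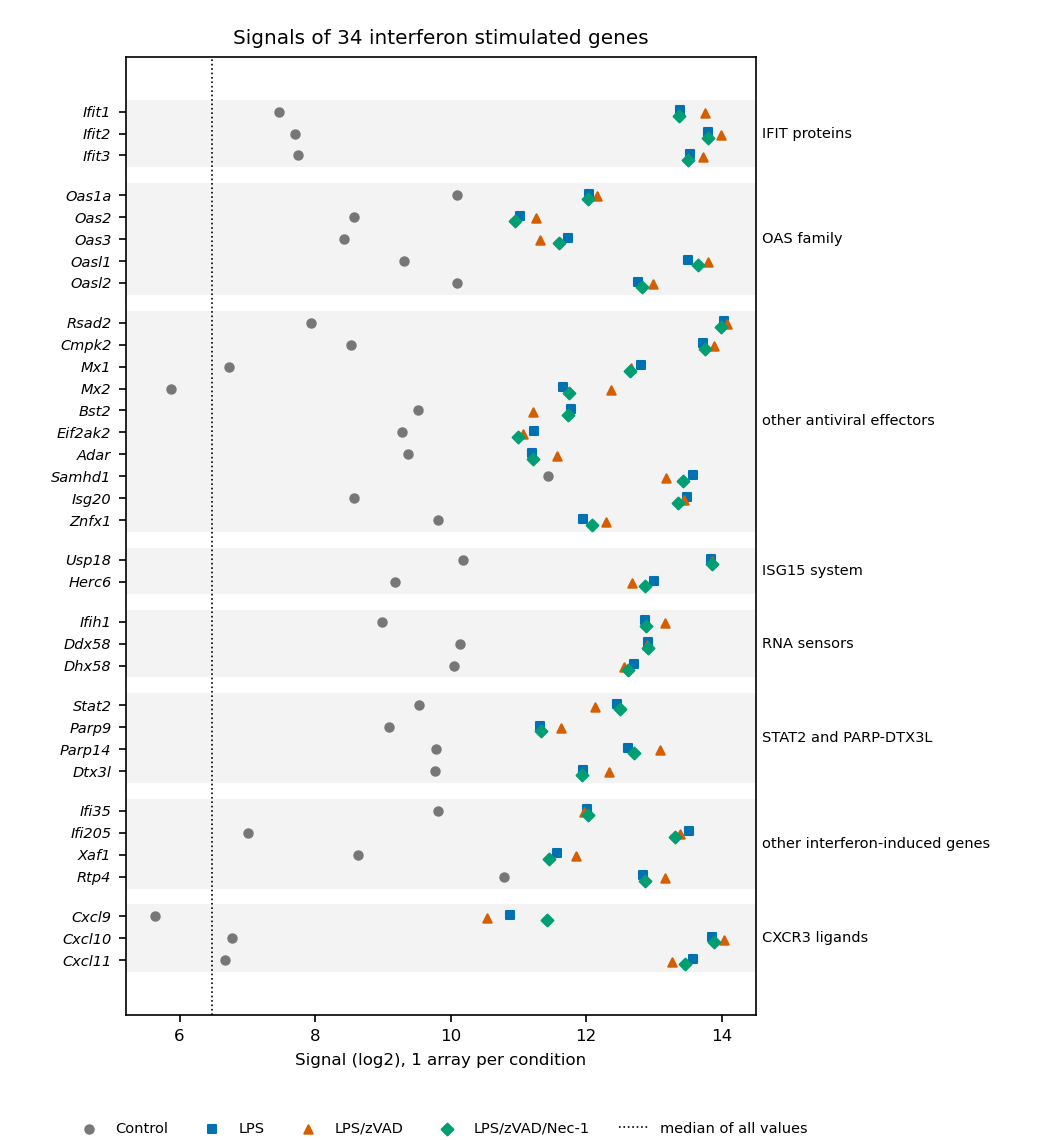
Signals (log2) of the 34 measured members on the single array of each condition, grouped by role, with the median of all values as a dotted line. The control signal (grey circles) lies below the other 3 for every gene, and the 3 arrays with LPS lie within 0.89 of one another for every gene.

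The 3 chemokine genes Cxcl9, Cxcl10 and Cxcl11 encode ligands of CXCR3, which draw activated T cells and NK cells. Cxcl10 had the highest ratio of all members, with log2 signals of 6.78 in untreated cells, 13.86 under LPS, 14.03 on the zVAD array and 13.88 on the Nec-1 array. Cxcl11 stood at 6.66, 13.58, 13.26 and 13.45 in the same order, which is 121-fold higher with LPS than in control. Cxcl9 stood at 5.63, 10.88, 10.53 and 11.42. Its untreated signal was below the filter level, and counted from that level it was at least 21.2-fold higher with LPS. For Cxcl10 the LPS/zVAD array was the highest of the 3 with LPS, and for Cxcl9 and Cxcl11 it was the lowest.

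The IFIT proteins bind foreign RNA and block its translation. Ifit1 stood at log2 7.47 in untreated cells, 13.38 under LPS, 13.75 on the zVAD array and 13.37 on the Nec-1 array. Ifit2 stood at 7.70, 13.80, 13.99 and 13.80, and was 68.7-fold higher with LPS than in control. Ifit3 stood at 7.75, 13.53, 13.72 and 13.51. The 3 genes had like profiles, highest on the LPS/zVAD array by 0.18 to 0.38 over LPS and lower again by 0.20 to 0.38 with Nec-1. Ifit3 has a near-identical neighbour, Ifit3b, and how far its probes separate the pair was not tested.

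The other antiviral effectors formed the largest role group, with 10 members. Rsad2 encodes viperin, which makes a chain-terminating nucleotide, and Cmpk2 is a nucleotide kinase gene next to it. Rsad2 stood at log2 7.93 in untreated cells and 14.03, 14.08 and 13.99 on the LPS, zVAD and Nec-1 arrays. Cmpk2 stood at 8.53, 13.72, 13.88 and 13.76. Both differed by no more than 0.16 among the arrays with LPS.

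Mx1 and Mx2 encode dynamin-like GTPases that block viruses. Common laboratory mouse strains, BALB/c among them, carry defective Mx alleles, so their RNA need not give a working protein. Mx1 stood at log2 6.74 in untreated cells, 12.81 under LPS, 12.66 on the zVAD array and 12.65 on the Nec-1 array. Mx2 stood at 5.87, 11.65, 12.36 and 11.74, and was at least 36.3-fold higher with LPS, counted from the filter level. Among all 34 members Mx2 had the highest ratio of LPS/zVAD to LPS, 1.63-fold.

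Bst2 (tetherin, which holds budding virus on the cell surface) lay at the other end. Its signals were log2 9.52 in untreated cells, 11.78 under LPS, 11.22 on the zVAD array and 11.74 on the Nec-1 array, which is 1.48-fold lower with zVAD than with LPS alone. Samhd1, which depletes nucleotides, stood at 11.43, 13.57, 13.17 and 13.43. Both were lowest on the LPS/zVAD array among the 3 with LPS. Isg20, an RNA exonuclease gene, stood at 8.57, 13.48, 13.44 and 13.35.

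The last 3 effectors were 3.55-fold (Adar) to 4.41-fold (Znfx1) higher with LPS than in control, and Samhd1 was also 4.41-fold higher. Znfx1, a helicase-like RNA sensor gene, stood at log2 9.81, 11.96, 12.29 and 12.08 in the order untreated, LPS, zVAD and Nec-1. Eif2ak2, the gene of the RNA-activated kinase PKR, stood at 9.27, 11.23 and 11.07 on the first 3, and on the Nec-1 array its log2 ratio to LPS was -0.23. Adar, an RNA-editing enzyme gene, stood at 9.37, 11.20, 11.57 and 11.22. Eif2ak2 was lowest with both inhibitors among the arrays with LPS, while Znfx1 and Adar were highest on the zVAD array.

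OAS enzymes make the messenger 2-5A that activates RNase L, and the OAS-like genes are their relatives. Oasl1, which is known to limit Irf7 translation, had the largest response of the 5, with log2 signals of 9.31 in untreated cells, 13.50 under LPS, 13.80 on the zVAD array and 13.65 on the Nec-1 array. Oas3 stood at 8.43, 11.73, 11.32 and 11.60. It was the single member of this group with a lower signal on LPS/zVAD than on LPS. Oasl2 stood at 10.10, 12.76, 12.99 and 12.82, and Oas2 at 8.58, 11.02, 11.26 and 10.94. Oas1a stood at 10.09, 12.05, 12.15 and 12.02. These 3 genes were highest on the zVAD array, by 0.11 to 0.25 over LPS. Oas1a belongs to a cluster of near-identical copies, so its value is uncertain as to which copy was read.

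RNA sensors and the protein-tagging arm of the programme came next. Ifih1 encodes MDA5 and stood at log2 8.98 in untreated cells, 12.87 under LPS, 13.16 on the zVAD array and 12.89 on the Nec-1 array. Ddx58 encodes RIG-I and stood at 10.14, 12.91, 12.90 and 12.92. Dhx58, the gene of their regulator LGP2, stood at 10.05, 12.70, 12.55 and 12.62. Of the 3, Ifih1 was highest with zVAD, while Dhx58 was lowest there among the arrays with LPS. Usp18 removes ISG15 from proteins and blocks the interferon receptor. It stood at 10.18, 13.84, 13.86 and 13.86, and the last 3 signals spanned 0.015, the narrowest range of any member. Herc6, a ligase that attaches ISG15, stood at 9.18, 12.996, 12.67 and 12.87.

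Stat2 is a subunit of ISGF3, and the Parp9-Dtx3l pair and Parp14 modify histones and STAT proteins. Stat2 stood at log2 9.53 in untreated cells, 12.46 under LPS, 12.13 on the zVAD array and 12.50 on the Nec-1 array. Parp14 stood at 9.79, 12.62, 13.09 and 12.70. Dtx3l stood at 9.76, 11.96, 12.33 and 11.94, and Parp9 at 9.08, 11.32, 11.63 and 11.33. The 3 genes around Parp9 were highest on the LPS/zVAD array, and Stat2 was lowest there among the arrays with LPS.

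The 4 remaining members have less defined roles. Ifi205 belongs to the HIN-200 family of DNA-binding proteins and had log2 signals of 7.00 in untreated cells, 13.52 under LPS, 13.39 on the zVAD array and 13.31 on the Nec-1 array. Its 91.8-fold ratio of LPS to control may include close relatives in the same gene cluster, which was not tested. Xaf1, a pro-apoptotic gene, stood at 8.64, 11.56, 11.84 and 11.45. Ifi35, an interferon-induced regulator gene, stood at 9.81, 12.01, 11.97 and 12.02. Rtp4, the gene of a receptor-trafficking protein, stood at 10.78, 12.84, 13.17 and 12.87. Xaf1 and Rtp4 were highest on the zVAD array, while the Ifi35 signals on the arrays with LPS spanned 0.054.

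LPS/zVAD against LPS addressed the addition of the caspase inhibitor. None of the 34 members was 2-fold higher or lower, while 3.25% of all genes were higher and 3.59% lower by that measure. A count of 0 in 34 is near each of these shares. The typical size was alike, with a median log2 ratio in either direction of 0.29 for the members and 0.28 for all genes. The members' log2 ratios ran from -0.56 (Bst2) to 0.71 (Mx2), with a median of 0.13 (all genes, -0.05), 20 above 0 and 14 below. At 1.5-fold, Mx2 was the single member past the threshold, against 21.1% of all genes in either direction. Role groups were mixed in direction except the IFIT genes, where all 3 ratios were above 0. The highest ratios after Mx2 were those of Parp14 (0.47), Dtx3l and Ifit1 (both 0.38). The lowest after Bst2 were those of Oas3 (-0.41), Samhd1 (-0.40) and Cxcl9 (-0.34).

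Among all genes that were higher with LPS, larger shares passed these thresholds. Of the 1005 genes at least 2-fold higher with LPS than in control, 24.8% were 2-fold apart between LPS/zVAD and LPS in either direction, and 46% were 1.5-fold apart. Of 418 such genes with LPS signals inside the members' own range, 15.3% were 2-fold apart. These shares use the LPS array on both sides, as the members' counts do, and the members are included in them. Ratios narrowed toward the top of the signal range. For the 11 members with LPS signals under log2 12 the median size of the ratio, in either direction, was 0.34. It was 0.23 for the 11 between 12 and 13 and 0.18 for the 12 above 13. The share of genes higher with LPS that were 2-fold apart in the same bands was 27.8% of 816, 13.1% of 137 and 7.69% of 52. The part of signal compression in the members' small ratios was not tested.

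**Figure D2:**
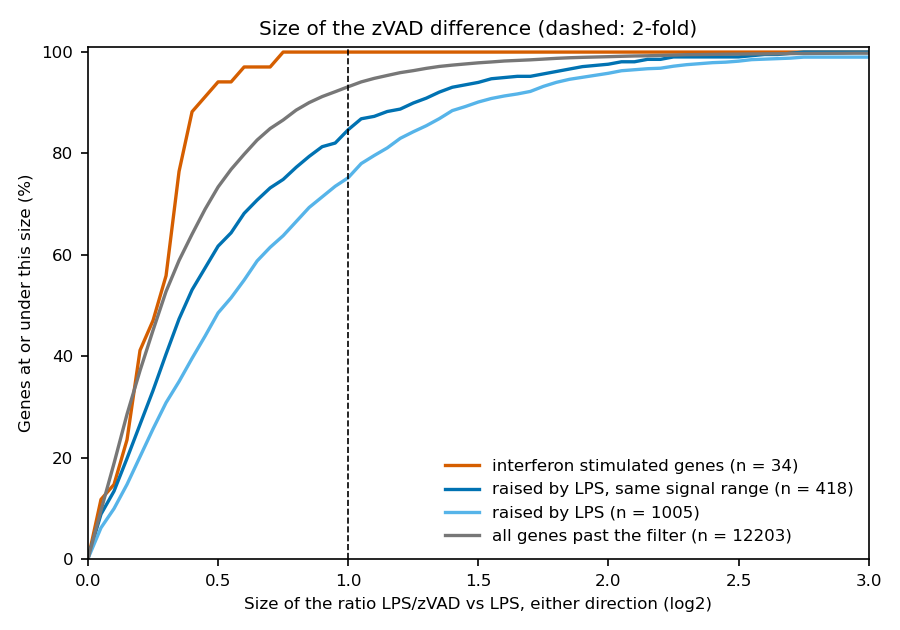
Cumulative share of genes (%) by the size of their LPS/zVAD to LPS ratio (log2, either direction), for the 34 members, for LPS-raised genes in the same signal range or of any signal, and for all genes past the filter. The curve of the members reaches 100% before the 2-fold line, where 15.3% of 418 LPS-raised genes of the same signal range and 24.8% of all 1005 lie beyond it.

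Adding Nec-1 to LPS/zVAD addressed the dependence on RIPK1 kinase activity. Again none of the 34 members was 2-fold higher (1.14% of all genes) or 2-fold lower (3.32%), and 0 in 34 is near each of these shares. Log2 ratios ran from -0.62 (Mx2) to 0.89 (Cxcl9), with a median of -0.13 (all genes, 0.07), 10 above 0 and 24 below. At 1.5-fold, Cxcl9 was higher (1.85-fold) and Mx2 lower (1.53-fold), against 15.5% of all genes in either direction. This comparison shares the LPS/zVAD array with the one before, so opposite signs in the 2 are in part built in.

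Set against LPS alone, the array with both inhibitors gave nearly the same values for the members. No member was 2-fold higher (0.0738% of all genes) or 2-fold lower (0.541%), and none was 1.5-fold apart, against 3.49% of all genes. Counts of 0 in 34 are near these shares of all genes. In 33 of 34 members the signals differed by no more than 0.25 on the log2 scale. The exception was Cxcl9, higher by 0.55 with both inhibitors. The median size of the difference was 0.05, compared with 0.15 over all genes past the filter. That background was not matched for signal, while every member had an LPS signal of at least log2 10.88. Among the 3 arrays with LPS, 20 members had their highest signal on the zVAD array, 10 on the LPS array and 4 on the Nec-1 array (58.8%, 29.4% and 11.8%). Over all genes past the filter these shares were 31.97%, 40.0% and 28.0%, and over the 1005 genes higher with LPS 36.0%, 53.9% and 10.0%.

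**Figure D3:**
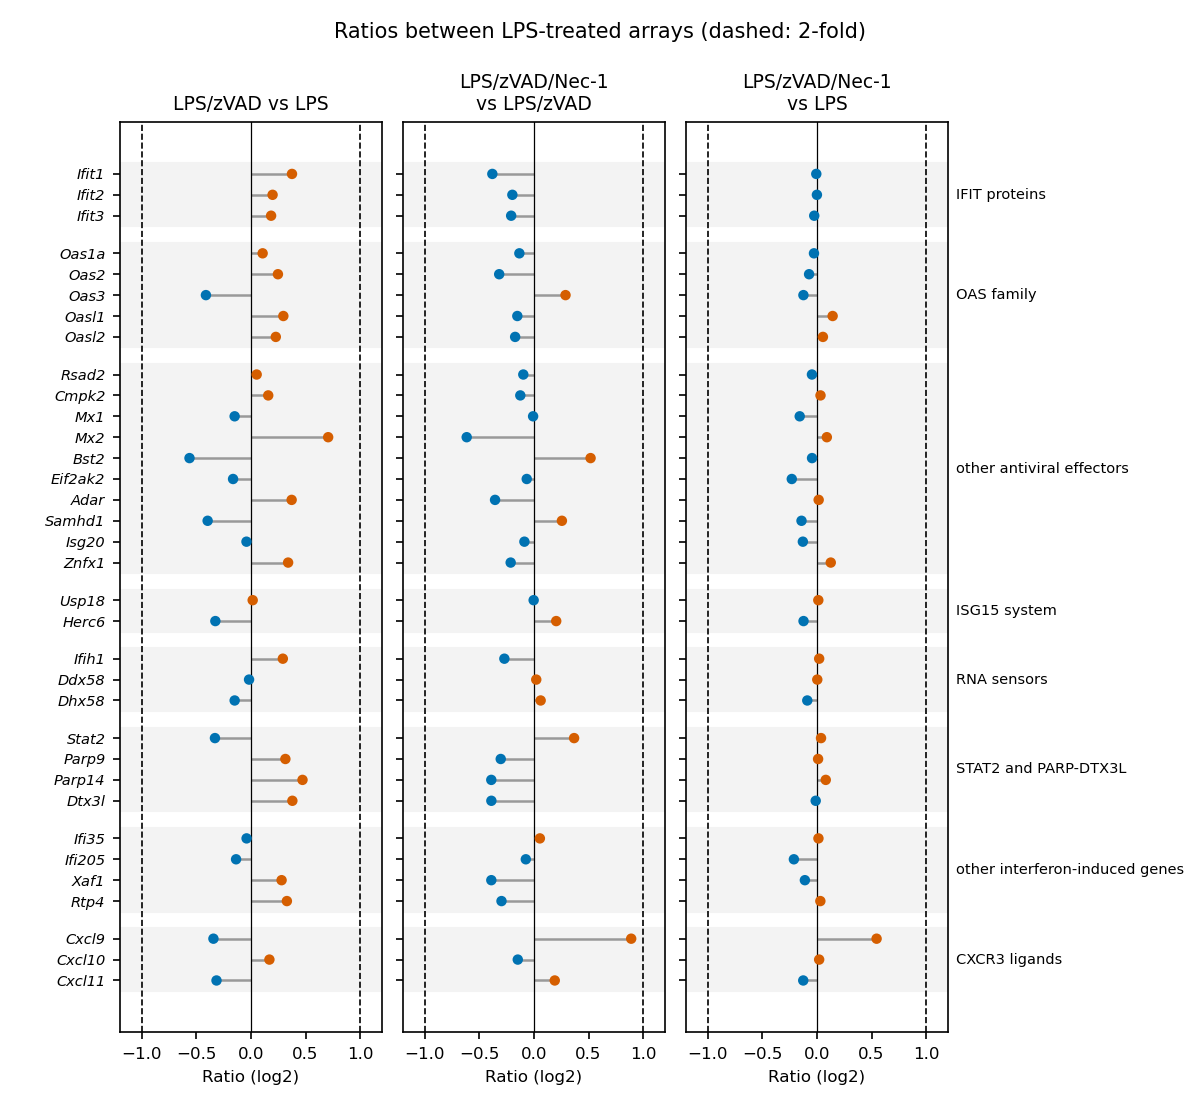
Log2 ratios of each member between the arrays with LPS, as LPS/zVAD to LPS, LPS/zVAD/Nec-1 to LPS/zVAD and LPS/zVAD/Nec-1 to LPS, with orange points above 0 and blue points below. All points lie inside the dashed 2-fold lines, the widest being Cxcl9 at 0.89 and Mx2 at 0.71, and the right panel is the narrowest.

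Against control, the members stayed high on both inhibitor arrays. All 34 were at least 2-fold higher with LPS/zVAD than in control (8.79% of all genes) and all 34 with LPS/zVAD/Nec-1 (6.85%). The median log2 ratio was 3.25 and 3.07. These comparisons share the control array with that of LPS, and are not replicates of it.

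The interferon itself had another profile than the genes it is known to induce. Ifnb1 had log2 signals of 5.42 in untreated cells, 6.48 under LPS, 11.62 on the zVAD array and 7.51 on the Nec-1 array. It was thus at the filter level with LPS alone, 2.09-fold above an untreated signal under that level. All 34 members were at least 3-fold above control on the same array. No treatment time is stated, so the order of these changes is not known. The 35.3-fold ratio of LPS/zVAD to LPS for Ifnb1 was the highest of all genes past the filter. Its 17.3-fold lower signal with Nec-1 was the lowest ratio. Other listed interferon genes with their own probe set were Ifna2, Ifna4, Ifna5 and Ifng. Interferon genes outside the list were not looked up, and Ifna2, Ifna4 and Ifna5 are also annotated on shared probe sets. With LPS and with LPS/zVAD, Ifna2 stood at 6.08 and 7.04, Ifna4 at 4.81 and 5.30, and Ifna5 at 7.62 and 7.83. Ifng stood at 6.22 and 6.32. The receptor genes went the other way, Ifnar1 from 12.31 to 11.55 and Ifnar2 from 12.87 to 12.33, both under 2-fold.

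Of 29 measured genes in the list of interferons, receptors and signalling, LPS alone had 9 at 2-fold above control and 0 below, against 8.24% and 7.2% of all genes. With zVAD added, 5 were higher and 4 lower (3.25% and 3.59% of all genes). Those higher were Ifnb1, the DNA sensor gene Cgas (2.99-fold), the transcription factor gene Irf1 (2.54-fold), Ticam1 (2.51-fold) and Ptpn2, which encodes a phosphatase of JAK and STAT proteins (2.02-fold). Those lower were Tyk2 (2.78-fold), Ikbke, the gene of IKK-epsilon (2.51-fold), Mavs, the adaptor gene of the RNA sensors (2.24-fold), and Ptpn6, the gene of the phosphatase SHP-1 (2.12-fold). Adding Nec-1 left 3 of these higher than on LPS/zVAD (Tyk2, Ikbke and Ptpn6) and 4 lower (Ifnb1, Cgas, Ticam1 and Ptpn2), against 1.14% and 3.32% of all genes.

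Single signalling genes had profiles of several kinds. Tyk2 stood at log2 9.16 in untreated cells, 10.84 under LPS, 9.36 on the zVAD array and 10.67 on the Nec-1 array. Its signal with zVAD was close to that of untreated cells. Irf1 stood at 8.63, 11.46, 12.81 and 11.86. Irf7, the factor that amplifies interferon alpha genes and is itself an interferon target, stood at 9.19, 13.28, 12.94 and 13.15, a profile like that of the members. Irf9, the DNA-binding subunit of ISGF3, stood at 9.99, 10.73, 11.51 and 10.86, and Irf3 at 8.86, 8.57, 7.80 and 8.56, both under 2-fold between any pair of arrays with LPS.

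**Figure D4:**
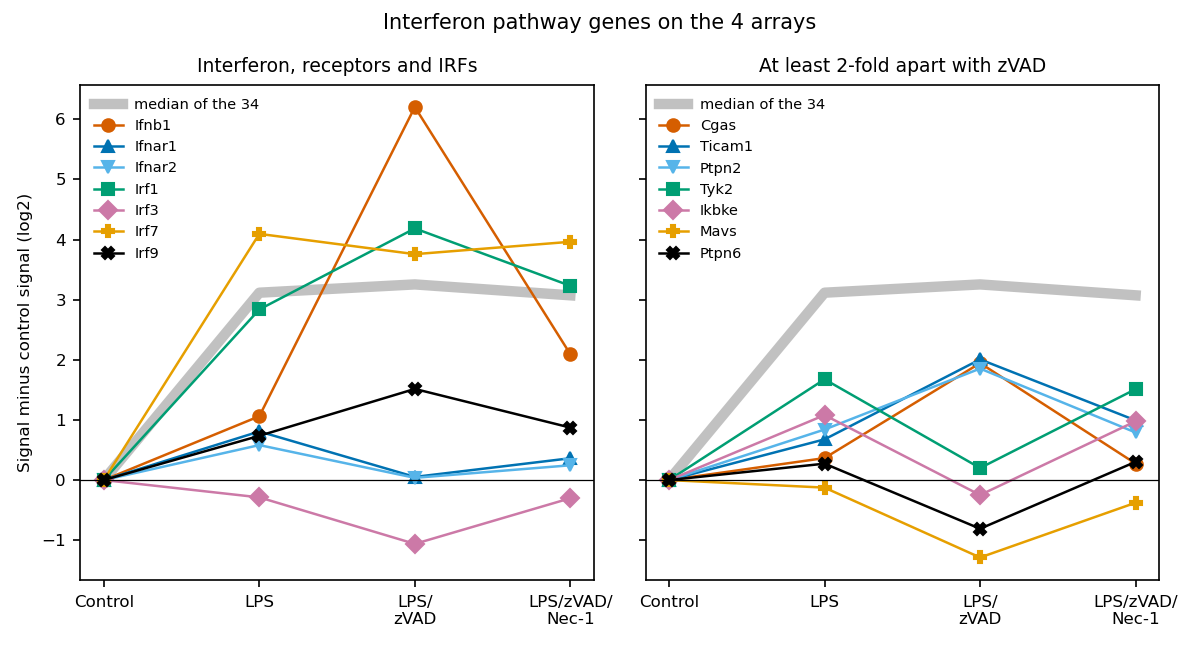
Log2 signal minus the control signal of the same gene on the 4 arrays, for genes of interferon production and signalling (left, the interferon, receptors and IRFs; right, further genes at least 2-fold apart with zVAD), with the median of the 34 members as a thick grey line. The grey line is flat over the arrays with LPS, at 3.12, 3.25 and 3.07, while Ifnb1 peaks on the LPS/zVAD array and Tyk2, Ikbke, Mavs and Ptpn6 dip there.

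A further list of 50 interferon stimulated genes outside the 37, of which 43 were measured, was compared in the same way. With LPS, 39 of 43 were 2-fold higher than control (8.24% of all genes) and 0 lower (7.2%), with a median log2 ratio of 2.46. With zVAD added, 1 was higher, the histone methyltransferase gene Setdb2 (log2 9.18 and 10.24), and 0 were lower, where 3.25% and 3.59% of all genes were. The median was -0.11 and the lowest ratio -0.91 (Parp11), with 16 ratios above 0 and 27 below, whereas the 34 members had 20 above and 14 below. At 1.5-fold, 1 of the 43 was higher and 5 were lower, against 21.1% of all genes in either direction. With Nec-1, 1 was lower than on LPS/zVAD, Ifit1bl2 (9.06 and 7.65), and 0 were higher, where 3.32% and 1.14% of all genes were. Counts of 1 in 43 at 2-fold are near these shares of all genes. Setdb2 is known to be induced by interferon and to restrain inflammatory genes.

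Members with and without the ISRE-type pattern overlapped in their ratios. The 12 with a match had a median log2 ratio of LPS to control of 3.59 and the 13 without one of 2.93, with ranges of 1.95 to 7.08 and 1.83 to 6.10. For LPS/zVAD against LPS the medians were 0.02 and 0.20. The promoters with a match include both Ifit1 (0.38) and Bst2 (-0.56), which lay far apart in that comparison.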

How the data were processed

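The deposited table holds log2 signals per probe set, and per the submitters' processing notes the tool was Affymetrix Expression Console. That they are log2 follows from their range. Its version, background correction and normalization are not stated in the sources used here, so 3 other scalings were tried. Gene symbols came from the platform annotation (21789 entries with 1 symbol, 1621 with several, 12146 with none), and RefSeq (GRCm38.p6) identifiers changed 0 symbols. All 34 members had 1 such entry.

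Ratios are differences of log2 signals between single arrays, counted at 2-fold. No test was possible with 1 array per condition, and the number of arrays limits the precision. The counting code was run on simulated data with shifts set past the threshold, which checks the code and not the precision of single-array ratios. Members and lists were chosen with earlier results of these data known. All members were named by role. From the other lists, genes 2-fold apart with zVAD or Nec-1 and a fixed set of key genes were named (1 of the set is not reported here), and extremes of a list were named after their values were seen. Ifna2, Ifna4, Ifna5, Ifng and Cgas complete the interferon list and its counts. Python 3.11.15, pandas 2.3.3, R 4.3.3 and limma 3.58.1 (quantile and cyclic loess) were used.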

Additional observations from a re-analysis of the deposited data

How the results depend on the processing

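Counts of members at 2-fold kept their value in all 6 comparisons with centred arrays, after quantile normalization and after cyclic loess. They also did at a 3-fold threshold, where a count of 0 at 2-fold could not change. Using the mean of all probe sets or no signal filter could not move the counts. Every member had 1 probe set with a single symbol and passed the filter. At 1.5-fold, 1 member was higher with LPS/zVAD than with LPS, and with Nec-1 added 1 was higher and 1 lower than with LPS/zVAD. The median log2 ratio of LPS to control moved to 3.22 with centred arrays, which also moved the median of all genes from -0.12 to -0.01, and that of LPS/zVAD to control to 3.38 after cyclic loess. The members' median of LPS/zVAD to LPS was 0.09 with centred arrays, 0.11 after quantile normalization and 0.22 after cyclic loess. Usp18 changed sign there in the first and second of these, and Isg20, Ddx58 and Ifi35 in the third, all with ratios under 0.05 in size as deposited. The median of LPS/zVAD/Nec-1 to LPS had no stable sign (-0.08, 0.04 and 0.06). The longer ISRE-type form was in 24% of the members with a promoter entry. Scalings of the 2 pathway lists were added after seeing the data; counts moved past 1.5 times in 1 case, where 2 further interferon stimulated genes were lower with Nec-1 after cyclic loess. Leaving out an array was not possible with 1 per condition. Detection calls were not used, so signals under log2 6.47 were not told from background.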

Other observations

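Several members are neighbours in the RefSeq gene order, and neighbours had like ratios in some places and not in others. Parp14, Dtx3l and Parp9 follow one another on chromosome 16 and had log2 ratios of LPS/zVAD to LPS of 0.47, 0.38 and 0.31. Oasl2 and Oasl1 on chromosome 5 had 0.23 and 0.30. Oas2 and Oas3, also adjacent on chromosome 5, had 0.25 and -0.41, on opposite sides of 0 under each scaling tried. Rsad2 and Cmpk2 on chromosome 12 had 0.05 and 0.16. Neighbouring genes are not independent points, and these are values of single arrays.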
